A study of Homo sapiens with 6 samples.

Results

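Nuclear receptors were examined in DU145 cells, a human prostate cancer cell line, by the FPKM of their genes, a level that divides a gene's fragments by its transcript length and by the mapped fragments of its library. The 41 genes were chosen by symbol from a list of the family outside LXR and NR4A, and all 41 were among the 23062 identifiers of the tables. RNA sequencing was carried out on wild-type DU145 cells, 3 libraries of cells kept in MEM medium for 48 h (control) and 3 of cells treated for 48 h with taraxasterol (TAX), a plant triterpene with a sterol-like ring system, at its IC50 dose. TAX was dissolved in DMSO, and whether the control cells received DMSO is not stated, so solvent and compound cannot be told apart. The methods of the study state in general that experiments were repeated. Whether the 3 libraries of a group came from separate cultures is not stated, so the p-values measure only the spread between these libraries.

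Nuclear receptors are transcription factors, most of which bind a small lipophilic ligand such as a steroid, a retinoid, a fatty acid, vitamin D or thyroid hormone. Steroid receptors wait in complex with HSP90 chaperones and bind DNA mainly as homodimers, while many of the others bind as heterodimers with a retinoid X receptor (RXR), and the ligand exchanges corepressors for coactivators. Orphan receptors such as the estrogen-related receptors act without a known hormone, and in the prostate the steroid receptors are best known for hormone-dependent growth. The question taken to the data was which receptors a sterol-like compound could meet in these cells, and whether their mRNA differed after TAX.

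The listed levels of the family ranged widely in DU145 cells. By mean over the 6 libraries, 9 of the 41 genes reached 10 FPKM or more, 10 lay from 1 to below 10 FPKM, 10 from 0.1 to below 1 FPKM, 9 above 0 and below 0.1 FPKM, and 3 (ESRRG, NR1H4 and HNF4A) were listed at 0 in every library. The glucocorticoid receptor NR3C1 (29.9 FPKM) and the fatty acid receptor PPARD (29.1 FPKM) had the highest means, followed by NR1D2 (19.5 FPKM), ESRRA (17.3 FPKM), NR2C2 (14.9 FPKM), PPARG (13.5 FPKM), RARG (13.1 FPKM), NR2C1 (11.6 FPKM) and RXRB (11.1 FPKM). The group test was limited to genes that reached 1 FPKM in 3 or more of the libraries, which 20 of the 41 did and 21 did not.

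**Figure D1:**
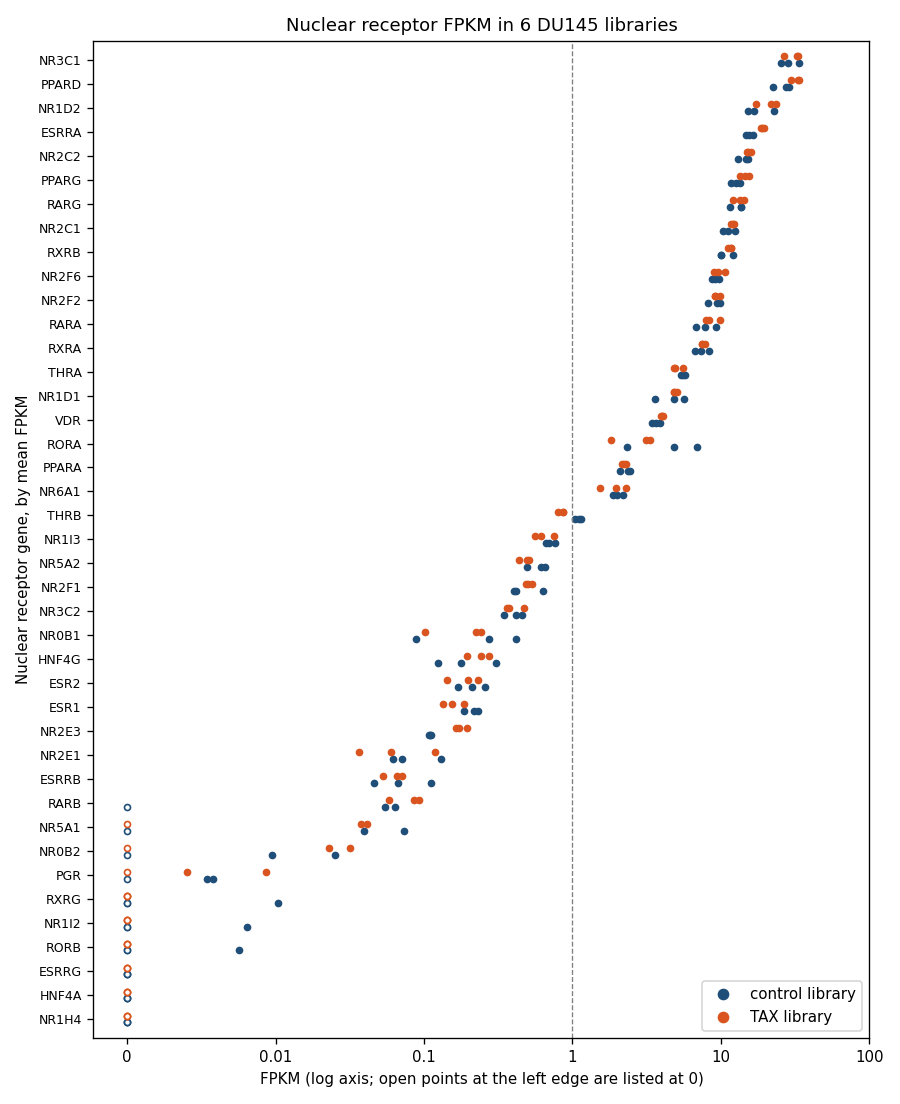
FPKM of the 41 nuclear receptor genes (log axis) in the 3 control and 3 TAX libraries, 1 point per library, ordered by mean; the dashed line marks 1 FPKM and open points are values listed at 0. The levels run from 29.9 FPKM on average for NR3C1 to 0 for ESRRG, NR1H4 and HNF4A, and the control and TAX points of most genes lie within each other's range.

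The order of neighbouring genes was often not fixed. Among the 20 genes past the filter, 8 of the 19 pairs of neighbours in the order of means stood in the same order in all 6 libraries and 11 did not. NR3C1 was above PPARD in only 4 of the 6 libraries, and PPARG above RARG in 3 of them. Summed over the 41 genes, the control libraries held 213.1, 234.0 and 189.7 FPKM in the order of their numbers. The TAX libraries held 237.5, 220.4 and 230.3 FPKM, which overlaps with the control range.

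No nuclear receptor gene passed the test between TAX and control cells. On log2(FPKM + 1) with limma, 0 of the 20 tested genes had an adjusted p under 0.05, against 0.477% of the 12359 genes tested, and 3 (ESRRA, PPARD and THRB) had an unadjusted p under 0.05, against 10.1% of all tested genes. After TAX 15 of the 20 were higher and 5 lower, where 69.1% of all tested genes were higher. The median log2 fold change of the 20 was 0.07 beside 0.05 for all tested genes. The 95% interval of the difference excluded a 1.5-fold change in either direction for 19 of the 20 genes, RORA being the exception. These bounds are for FPKM + 1, and for FPKM + 0.1 they excluded it for 18, as the interval of THRB (-0.66 to -0.02) then also reached past it. The 3 TAX values lay above the 3 control values for 3 genes (ESRRA, PPARD and VDR), where 14.6% of all tested genes did so, and below them for 1 gene (THRB), where 3.34% did. THRB passed the filter through its control libraries alone, so its groups could not overlap. Neither that nor its p is support for a difference.

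The scale of 1 library touches these counts. The median FPKM of the tested genes was 8.736 in control replicate 3 and 9.838 to 9.989 in the other 5 libraries, and control replicate 3 held the lowest value of 14 of the 20 genes. After each library was centred on its median, 12 of the 20 were higher and 8 lower. On that scale 3 of them had an unadjusted p under 0.05 (12.1% of all genes), 2 (ESRRA and PPARD) were higher without overlap (9.14% of all genes) and 2 (THRB and PPARA) lower without overlap (9.53% of all genes). Here too THRB is counted after passing the filter through its control libraries alone. Without control replicate 3, 10 were higher and 10 lower.

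**Figure D2:**
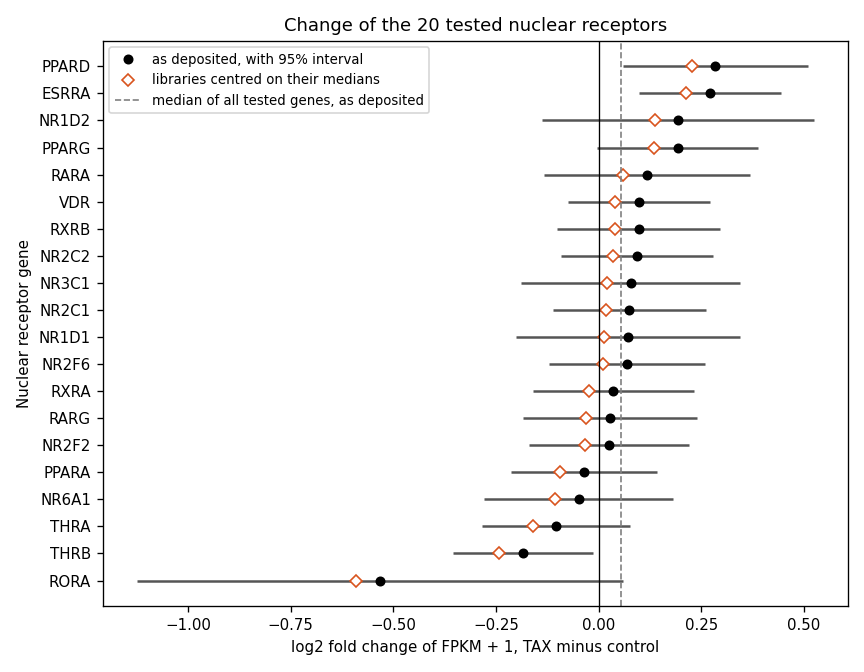
Log2 fold change of FPKM + 1, TAX minus control, for the 20 tested nuclear receptors, with the 95% limma interval (black) and the value after each library was centred on its median (open diamonds). Apart from ESRRA, PPARD and THRB the intervals include 0, and the centred values lie to the left of the deposited ones, so that 12 instead of 15 are above 0.

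Among the steroid receptors and their closest relatives, 2 of 8 genes passed the filter. NR3C1 (chromosome 5, 143277931 to 143435512, minus strand, GENCODE 29 on GRCh38), which binds cortisol, had 28.3, 33.7 and 25.2 FPKM in the control and 33.1, 26.4 and 32.5 FPKM in the TAX libraries. These ranges overlap nearly fully, and the log2 fold change was 0.08 (SE 0.12, 95% interval -0.19 to 0.34, adjusted p = 0.839). It was 0.19 without control replicate 2 and -0.02 without control replicate 3. It was 98.5% to 98.9% of the summed FPKM of the 2 corticoid receptors, as the mineralocorticoid receptor NR3C2 lay between 0.344 and 0.475 FPKM.

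ESRRA (chromosome 11, 64305572 to 64316743, plus strand), the estrogen-related receptor alpha, an orphan receptor known for control of mitochondrial genes together with PGC-1 coactivators, had the smallest p of the 20. It had 14.7, 16.5 and 15.5 FPKM in the control and 18.8, 19.6 and 18.6 FPKM in the TAX libraries. Every TAX value was above every control value, and the means were 15.6 ± 0.928 and 19.0 ± 0.505 FPKM (SD, n = 3). The log2 fold change of 0.27 (SE 0.08, 95% interval 0.10 to 0.44) missed the threshold (adjusted p = 0.257), and was 0.21 after median centring. In annotation, 284 exon bases of ESRRA (9.4%) are shared with TRMT112 on the opposite strand, which was listed at 99 to 103 FPKM in the control and 105 to 120 FPKM in the TAX libraries (log2 fold change 0.14, adjusted p = 0.59). Whether fragments were assigned by strand is not stated, and the part of TRMT112 in the ESRRA values was not tested. The other estrogen-related receptors were at 0.0459 to 0.112 FPKM (ESRRB) and 0 (ESRRG), so ESRRA made up 99.3% to 99.7% of the 3.

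The sex steroid receptors on the list were near the floor. ESR1, estrogen receptor alpha, had 0.187, 0.218 and 0.232 FPKM in the control and 0.185, 0.135 and 0.155 FPKM in the TAX libraries. All TAX values were below the control values, although TAX replicate 1 and control replicate 1 nearly met. The exact permutation test for ESR1 gave p = 0.1, the smallest that 3 against 3 libraries allow. Of all genes past a filter of 0.1 FPKM, 4.46% were lower without overlap. ESR2, estrogen receptor beta, lay between 0.142 and 0.256 FPKM with overlap, and the progesterone receptor PGR did not exceed 0.0086 FPKM.

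The PPARs, receptors for fatty acids and their derivatives that pair with RXR, had the highest summed FPKM of the 11 subfamilies compared. PPARD (chromosome 6, 35342558 to 35428191, plus strand) had 27.6, 28.6 and 22.4 FPKM in the control and 32.9, 29.8 and 33.4 FPKM in the TAX libraries. All TAX values lay above the control values, with means of 26.2 ± 3.31 and 32.0 ± 1.94 FPKM (SD, n = 3), and control replicate 3 was the lowest library. The log2 fold change was 0.28 (SE 0.10, 95% interval 0.06 to 0.51, adjusted p = 0.392), and it was 0.23 after median centring and 0.18 without control replicate 3.

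PPARG (chromosome 3, 12287368 to 12434356, plus strand), known for adipocyte differentiation, had 12.6, 13.5 and 11.6 FPKM in the control and 15.5, 13.4 and 14.6 FPKM in the TAX libraries. The groups overlap through control replicate 2 and TAX replicate 2 (log2 fold change 0.19, SE 0.09, adjusted p = 0.493). PPARA, known for fatty acid oxidation in the liver, was between 2.1 and 2.45 FPKM, with overlap as deposited and lower without overlap after median centring (log2 fold change -0.09).

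The summed PPAR level was 42.6, 44.6 and 36.1 FPKM in the control and 50.5, 45.4 and 50.3 FPKM in the TAX libraries. Within this sum, a measure that does not depend on the scale of a library, PPARD took 64.9%, 64.1% and 62.1% in the control and 65.1%, 65.6% and 66.4% in the TAX libraries, and PPARA 5.55%, 5.49% and 5.80% against 4.23%, 4.92% and 4.54%. Neither share overlapped between the groups, PPARD being higher and PPARA lower after TAX, while the PPARG share (29.1% to 32.1%) overlapped. In the other subfamilies compared the shares overlapped, except in the thyroid hormone pair. There THRA took 82.5% to 84.2% in the control and 84.8% to 86.5% in the TAX libraries. THRB, which took the rest, passed the filter through its control libraries alone. These shares were compared without a test, and no such rate was taken over all genes.

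The sequences just before the starts of ESRRA, PPARD and PPARG are shown because these are the 3 receptors above 10 FPKM with the smallest p, all higher after TAX. Many nuclear receptors bind copies of the core motif AGGTCA, which is in capitals below where it or its reverse complement occurs. The sequences are from RefSeq on GRCh38.p14, plus strand, 250 bases each, from chr11:64305274-64305523, chr6:35342308-35342557 and chr3:12287118-12287367, the last being 1 of 6 PPARG starts in that table.
ESRRA: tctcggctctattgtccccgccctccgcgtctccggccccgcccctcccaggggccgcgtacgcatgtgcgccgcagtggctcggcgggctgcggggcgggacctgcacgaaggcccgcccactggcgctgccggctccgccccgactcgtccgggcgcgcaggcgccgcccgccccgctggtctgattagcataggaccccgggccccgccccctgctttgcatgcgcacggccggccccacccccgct
PPARD: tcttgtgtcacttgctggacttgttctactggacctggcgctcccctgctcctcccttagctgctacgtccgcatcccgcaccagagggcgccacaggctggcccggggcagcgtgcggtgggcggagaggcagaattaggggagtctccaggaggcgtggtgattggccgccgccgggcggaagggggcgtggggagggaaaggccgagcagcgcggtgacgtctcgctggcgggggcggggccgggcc
PPARG: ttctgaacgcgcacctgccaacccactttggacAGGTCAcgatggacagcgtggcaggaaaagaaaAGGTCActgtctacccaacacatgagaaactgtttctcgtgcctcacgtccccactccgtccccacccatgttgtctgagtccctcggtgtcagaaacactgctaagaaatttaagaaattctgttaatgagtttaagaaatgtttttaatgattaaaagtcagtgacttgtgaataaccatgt
The windows of ESRRA and PPARD are rich in G and C (78.0% and 70.8% of bases) and do not hold the core motif by these letters. The PPARG window, with 44.8% G and C, holds 2, starting 217 and 184 bases before the gene start. It is the PPARG window with the most matches, as 3 of the other 5 hold none and the remaining 2, which overlap each other nearly fully, hold 1. Of the listed receptors 37 had at least 1 window in the table, 88 windows in all, and not HNF4G, NR0B2, NR2F6 and VDR. The core motif was in 14 of the 88 windows (15.9%), which belong to 10 genes, against 12.1% of all 35116 windows. The longer form TNAAGGTCA, which contains AGGTCA and is the form that estrogen-related receptors bind, was in 1 of the 88 (0.854% of all windows), and the E-box CACGTG of the clock factors in 6 of the 88 (6.34% of all windows).

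The thyroid hormone receptors summed to 5.71 to 6.44 FPKM after TAX and 6.56 to 6.80 FPKM in the control, compared without a test. These ranges do not overlap, while those of THRA alone do, so the separation rests on adding THRB. For the reason given below for THRB, it is no support for a difference. Of the other subfamily sums, those of the PPARs and the estrogen-related receptors were higher without overlap and the rest overlapped. THRB (chromosome 3, 24117153 to 24495756, minus strand) had 1.10, 1.15 and 1.04 FPKM in the control and 0.798, 0.866 and 0.866 FPKM in the TAX libraries, with means of 1.09 ± 0.0546 and 0.844 ± 0.0391 FPKM (SD, n = 3). It passed the filter of 1 FPKM through the control libraries alone, so that its groups could not overlap. Neither this nor its p is support for a difference. The log2 fold change was -0.18 (SE 0.08, 95% interval -0.35 to -0.01, adjusted p = 0.459), and on log2(FPKM + 0.1), which compresses low values less, it was -0.34. THRA (chromosome 17, 40058290 to 40093867, plus strand), the more abundant of the pair at 82.5% to 86.5% of their sum, had 5.70, 5.41 and 5.55 FPKM in the control and 4.92, 5.57 and 4.84 FPKM in the TAX libraries. Only TAX replicate 2 reached the control values (log2 fold change -0.10, SE 0.08, adjusted p = 0.681). The 263 exon bases that THRA shares with NR1D1 on the opposite strand are 3.8% of its exon bases and 9.5% of those of NR1D1.

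The retinoid receptors did not separate between the groups. RARG, the retinoic acid receptor known from epithelia, had 13.7, 13.6 and 11.5 FPKM in the control and 13.4, 14.3 and 12.0 FPKM in the TAX libraries (log2 fold change 0.03, SE 0.10, adjusted p = 0.935). RARA was between 6.82 and 9.86 FPKM (adjusted p = 0.734), and RARB did not exceed 0.0925 FPKM. RARG made up 57.5% to 63.9% of the 3. Of the RXRs, the shared partners of many receptors, RXRB was between 9.98 and 12.1 FPKM (adjusted p = 0.724) and RXRA between 6.67 and 8.26 FPKM (adjusted p = 0.908). RXRG was listed above 0 in 1 library only (0.0104 FPKM in control replicate 3). RXRB took 57.8% to 61.2% of the RXR sum, which was 18.1 ± 1.97 FPKM in the control and 19.0 ± 0.122 FPKM in the TAX libraries (SD, n = 3). In annotation, 244 exon bases of RXRB (6.2%) are shared with SLC39A7 on the opposite strand, which was at 37.2 to 42.2 FPKM. The part of SLC39A7 in the RXRB values was not tested.

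**Figure D3:**
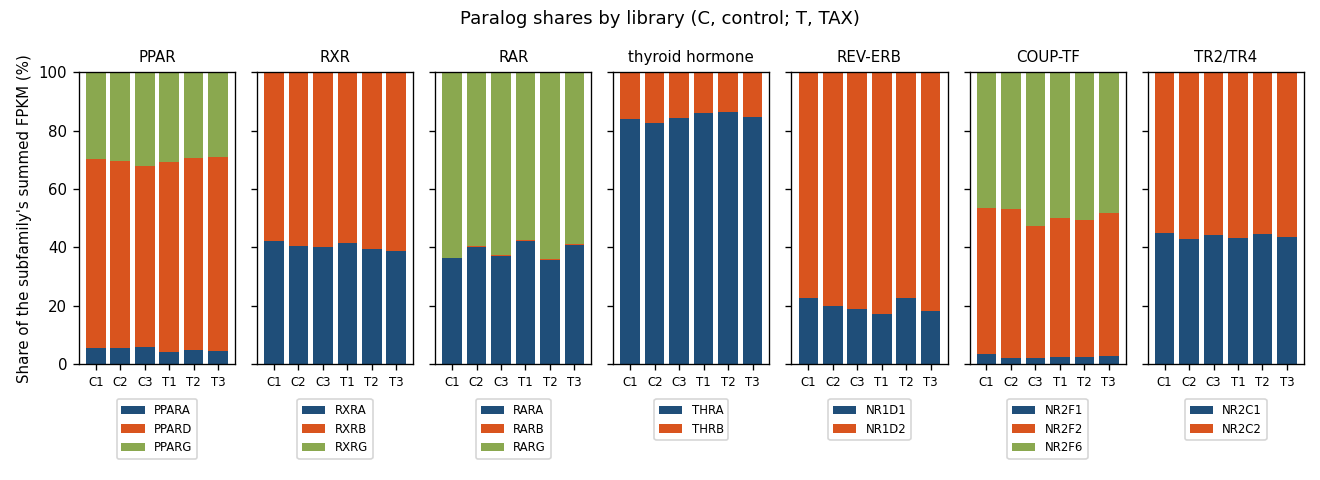
Share of each gene in the summed FPKM of its subfamily (%) in the 3 control (C) and 3 TAX (T) libraries, as stacked bars from 0 to 100%. The same gene leads in every library for the PPARs (PPARD, 62.1% to 66.4%), RXRs (RXRB), RARs (RARG), thyroid hormone receptors (THRA), REV-ERBs (NR1D2) and TR2/TR4 (NR2C2), while NR2F2 and NR2F6 change places.

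Of the 4 circadian receptors, 3 passed the filter. RORA (chromosome 15, 60488284 to 61229319, minus strand), an activator of clock genes, had 4.82, 6.95 and 2.34 FPKM in the control and 3.34, 1.83 and 3.15 FPKM in the TAX libraries. The lowest control library was below 2 of the 3 TAX libraries, and the log2 fold change of -0.53 had an SE of 0.27 (95% interval -1.13 to 0.06, adjusted p = 0.529). Its size depended on single libraries, as the log2 fold change was -0.88 without control replicate 3 and -0.25 without control replicate 2. It was -0.34 without TAX replicate 2, and -0.65 and -0.61 without TAX replicates 1 and 3.

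NR1D2 (chromosome 3, 23945260 to 23980618, plus strand), REV-ERB beta, a heme-binding repressor of the same clock genes, had 16.6, 22.7 and 15.3 FPKM in the control and 23.6, 17.2 and 21.8 FPKM in the TAX libraries. Control replicate 2 and TAX replicates 1 and 3 were high in both groups (log2 fold change 0.19, SE 0.15, adjusted p = 0.673). The value was 0.36 without control replicate 2 and 0.08 without control replicate 3, and 0.10 and 0.32 without TAX replicates 1 and 2. NR3C1, RARA and PPARG had the same 3 libraries on top, so 4 of the 20 genes did, beside 13.0% of all tested genes and 7.95% after median centring. Its paralog NR1D1, REV-ERB alpha, was between 3.58 and 5.67 FPKM, with both extremes in the control group (adjusted p = 0.854), and RORB was above 0 only in control replicate 1 (0.00564 FPKM). NR1D2 made up 77.3% to 82.9% of the REV-ERB sum.

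**Figure D4:**
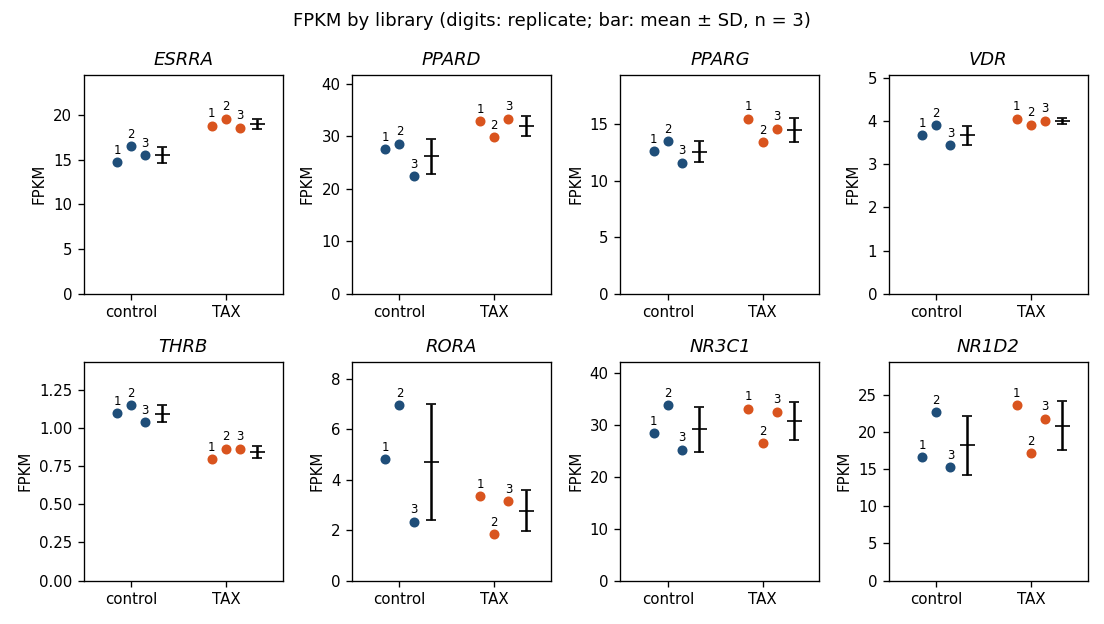
FPKM of 8 nuclear receptors in each control and TAX library (digits give the replicate number), with the mean ± SD of the 3 libraries beside the points; every axis starts at 0. ESRRA, PPARD, VDR and THRB do not overlap between the groups, THRB having passed the filter through its control libraries alone. RORA spreads from 2.34 to 6.95 FPKM within the control group.

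Of the receptors for vitamin D, bile acids and foreign compounds, only VDR passed the filter. VDR (chromosome 12, 47841537 to 47943048, minus strand) had 3.67, 3.90 and 3.45 FPKM in the control and 4.06, 3.92 and 4.01 FPKM in the TAX libraries. The TAX values lay just above the control values as deposited (log2 fold change 0.10, SE 0.08, adjusted p = 0.683), and the groups overlapped after median centring. The log2 fold change was 0.06 without control replicate 3. The bile acid receptor NR1H4 was listed at 0 throughout, and the pregnane X receptor NR1I2 above 0 in 1 library (0.00645 FPKM in control replicate 2). The constitutive androstane receptor NR1I3 was between 0.560 and 0.759 FPKM with overlap, and 661 of its 3305 exon bases are shared with TOMM40L on the opposite strand, which was at 5.87 to 8.30 FPKM.

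The orphan receptors TR2 and TR4 and the COUP-TFs made up most of what remained. NR2C2 (TR4) had 15.3, 14.8 and 13.1 FPKM in the control and 16.0, 15.0 and 15.2 FPKM in the TAX libraries (log2 fold change 0.09, SE 0.08, adjusted p = 0.713). NR2C1 (TR2) had 12.4, 11.1 and 10.4 FPKM against 12.2, 12.0 and 11.6 FPKM (log2 fold change 0.08, SE 0.08, adjusted p = 0.779). Both pairs of groups overlap, and the 2 paralogs kept a nearly fixed ratio, NR2C2 taking 55.2% to 57.2% of their sum. NR2C2 shares 1197 exon bases (10.1%) with MRPS25 on the opposite strand, which was at 10.1 to 11.3 FPKM. The part of MRPS25 in the NR2C2 values was not tested. NR2F2 (COUP-TF II) was between 8.23 and 9.93 FPKM and NR2F6 between 8.77 and 10.6 FPKM, both with overlap and adjusted p of 0.935 and 0.797. NR2F1 (COUP-TF I) was between 0.404 and 0.635 FPKM. Known from other tissues, HNF4A (liver) was listed at 0, HNF4G was between 0.125 and 0.306 FPKM, and NR2E1 (neural stem cells) between 0.0367 and 0.131 FPKM. NR2E3, a photoreceptor gene, had 0.111, 0.108 and 0.110 FPKM in the control and 0.172, 0.196 and 0.164 FPKM in the TAX libraries. These groups do not overlap (exact permutation test, p = 0.1, the smallest possible), at a level where the filter kept the gene out of the fit. Of all genes past a filter of 0.1 FPKM, 12.4% were higher without overlap.

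In the last group, NR6A1 (germ cell nuclear factor) was between 1.54 and 2.29 FPKM, with both extremes among the TAX libraries (log2 fold change -0.05, adjusted p = 0.887). NR5A2 was between 0.438 and 0.657 FPKM with overlap, and its paralog NR5A1 (SF-1), known for steroid synthesis in the adrenal gland and gonads, did not exceed 0.0730 FPKM. NR0B1 was between 0.0886 and 0.416 FPKM and NR0B2, a corepressor without a DNA-binding domain, at most 0.0318 FPKM. In all, 10 of the 41 genes were listed at 0 in at least 1 library. Without counts the depth is unknown, so a listed 0 gives no upper limit.

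Genes that act with the receptors were measured as well. Of 20 listed coactivators 19 were tested, 13 higher and 6 lower after TAX (median log2 fold change 0.06), and 0 passed the test. NCOA7 had 42.0, 46.1 and 32.9 FPKM in the control and 34.6, 26.3 and 31.1 FPKM in the TAX libraries, with slight overlap (log2 fold change -0.38, adjusted p = 0.38). CARM1, a methyltransferase of the coactivator complex, had 23.0, 21.0 and 18.6 FPKM against 24.2, 26.0 and 24.2 FPKM, without overlap (log2 fold change 0.24, adjusted p = 0.411). Of the 12 corepressors 10 were higher and 2 lower (median 0.06, 0 passed), TBL1XR1 of the NCOR complex (log2 fold change -0.18, adjusted p = 0.486) and CTBP1 (0.12, adjusted p = 0.63) having the smallest p. Of the 14 HSP90 chaperones of steroid receptors 12 were higher and 2 lower (median 0.06, 0 passed), led by PPID (0.16, adjusted p = 0.616) and PTGES3 (0.11, adjusted p = 0.687). The median of all tested genes was 0.05, and 69.1% of them were higher after TAX.

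Of 24 genes for ligand supply and transport 12 were tested, 6 higher and 6 lower (median log2 fold change 0.00), and 0 passed. CYP24A1, the enzyme that inactivates vitamin D and a standard target of VDR, had 8.27, 6.43 and 6.99 FPKM in the control and 4.29, 5.14 and 4.65 FPKM in the TAX libraries. Every TAX value was below every control value, with means of 7.23 ± 0.943 and 4.69 ± 0.425 FPKM (SD, n = 3). The log2 fold change of -0.53 (SE 0.10) missed the threshold as deposited (adjusted p = 0.0653) and passed it after median centring (adjusted p = 0.0471). CYP27B1, which makes active vitamin D, had 4.51, 4.49 and 4.06 FPKM against 4.96, 5.12 and 4.76 FPKM (log2 fold change 0.15, adjusted p = 0.542). CYP24A1 was thus lower and CYP27B1 higher without overlap, as were 3.34% and 14.6% of all tested genes. After median centring the log2 fold change of CYP27B1 was 0.09. CYP27A1 of the same list overlapped between the groups (log2 fold change 0.02). Of the 8 listed VDR targets 3 were tested, 1 higher and 2 lower, and beside CYP24A1 the smallest p was that of IGFBP3 (log2 fold change -0.59, SE 0.35, adjusted p = 0.589), whose control values ran from 34.5 to 116 FPKM. Its log2 fold change was -0.10 without control replicate 2 and -0.96 without control replicate 3.

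**Figure D5:**
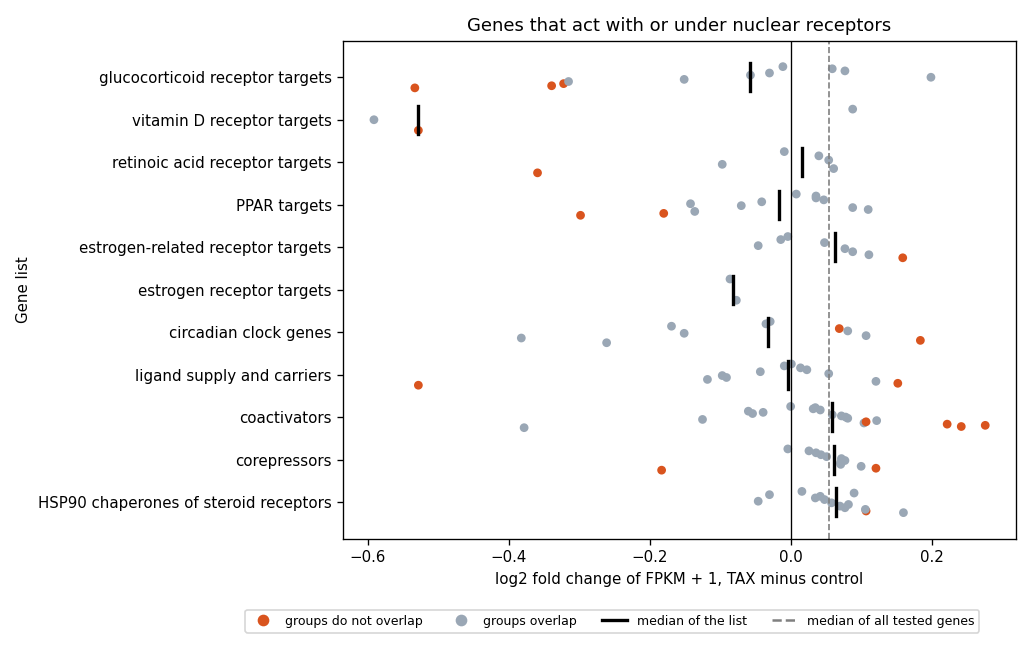
Log2 fold change of FPKM + 1, TAX minus control, of each tested gene in 11 lists of nuclear receptor targets and partners, with the median of each list (black bar) and of all tested genes (dashed line); orange points are genes whose groups do not overlap. Coactivators, corepressors and chaperones center near the dashed line, and CEBPD, CYP24A1 (in 2 lists), PLAAT4, GLUL, ZFP36 and PDK4 lie farthest to the left among the orange points.

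Genes known as targets of the more abundant receptors were taken next. Of 12 listed glucocorticoid receptor targets 11 were tested, 3 higher and 8 lower after TAX (median log2 fold change -0.06), 3 of them lower without overlap (3.34% of all tested genes) and 0 past the test. CEBPD, a transcription factor of the C/EBP family, had 48.6, 55.4 and 41.4 FPKM in the control and 35.1, 33.0 and 30.9 FPKM in the TAX libraries (log2 fold change -0.53, SE 0.11, adjusted p = 0.0854). GLUL, glutamine synthetase, had 22.9, 19.9 and 19.1 FPKM against 15.8, 16.8 and 15.6 FPKM (log2 fold change -0.34, SE 0.09, adjusted p = 0.19). After median centring both passed, with adjusted p of 0.0205 and 0.0478, and CEBPD also passed without control replicate 3 (adjusted p = 0.0483). FKBP5, a target often used as a readout of the receptor and named here for that use, lay between 29.3 and 33.1 FPKM with overlap. These genes also answer to other signals, and the part of NR3C1 was not tested.

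Of the 15 PPAR targets 12 were tested, 6 higher and 6 lower (median log2 fold change -0.02, 0 passed). PDK4, a kinase that restrains pyruvate oxidation, had 1.61, 1.90 and 1.44 FPKM in the control and 1.13, 1.23 and 1.09 FPKM in the TAX libraries, lower without overlap (log2 fold change -0.30, SE 0.09, adjusted p = 0.269, and -0.48 for FPKM + 0.1), and ACAA2 followed (-0.18, adjusted p = 0.563). The 8 targets of estrogen-related receptors, genes of mitochondrial respiration, were 5 higher and 3 lower (median 0.06, 0 passed), with ATP5F1B (0.16, adjusted p = 0.605) first by p. Of 10 retinoic acid receptor targets 6 were tested, 3 higher and 3 lower (median 0.02). PLAAT4 had 2.88, 2.78 and 2.35 FPKM against 1.94, 1.96 and 1.66 FPKM (log2 fold change -0.36, SE 0.09, adjusted p = 0.177, and 0.0471 after median centring).

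Estrogen receptor targets had 2 of 8 genes past the filter, IGFBP4 and CTSD, both lower with overlap (log2 fold change -0.08 and -0.09, and 0.01 for CTSD without control replicate 2). Of the 10 targets of the bile acid and xenobiotic receptors 0 passed the filter. Of 16 listed clock genes 10 were tested, 4 higher and 6 lower (median -0.03, 0 passed), where DBP (log2 fold change -0.26, adjusted p = 0.425) and NPAS2 (0.18, adjusted p = 0.535) had the smallest p. Outside the list of receptors, NR4A1 (8.82 to 19.4 FPKM), NR4A2 (2.55 to 5.01 FPKM) and NR4A3 (3.68 to 6.98 FPKM) were lower after TAX without overlap. Of all tested genes 3.34% were, and 9.53% after median centring. NR4A1 passed the test after median centring (adjusted p = 0.0414) and without control replicate 3 (0.0405), but not as deposited (0.116). NR4A2 and NR4A3 passed it in 0 of the 14 alternatives (adjusted p = 0.427 and 0.177 as deposited). The oxysterol receptors NR1H2 (18.1 to 23.2 FPKM) and NR1H3 (1.75 to 2.40 FPKM) overlapped.

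The libraries were those of epithelial cells, with all 7 epithelial markers past the filter and a summed level of 582 to 749 FPKM in the control and 739 to 786 FPKM in the TAX libraries. Of the luminal prostate markers KLK3, KLK2, FOLH1 and HOXB13 were listed at 0 in every library. For neuroendocrine, fibroblast, leukocyte and hepatocyte markers 1 gene each passed, of 5, 6, 5 and 4. The summed level was 1.25 to 1.75 FPKM in the control against 1.34 to 1.94 FPKM in the TAX libraries for neuroendocrine markers. It was 1.95 to 2.12 against 1.5 to 1.58 FPKM for fibroblast markers, 20.3 to 26.9 against 32.7 to 33.9 FPKM for leukocyte markers, and 32.0 to 43.8 against 44.5 to 52.8 FPKM for hepatocyte markers. The last 2 sums rest on CD68 and SERPINA1, while CD3E was listed at 0, PTPRC was above 0 only in control replicate 3 (0.00692 FPKM) and ALB did not exceed 0.0427 FPKM. On log2(FPKM + 1), 2 libraries of the same group correlated with a Pearson's r of 0.991 to 0.9949, and a control with a TAX library at 0.9895 to 0.9934, so these ranges overlap.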

How the data were processed

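RNA of DU145 cells was isolated with Trizol and sequenced from an mRNA library, 3 libraries per group. The authors deposited 1 table per library with 1 FPKM value per gene. The unit is read from the values, which are decimals with unequal sums, and from identifiers with the prefix that StringTie gives. The submitters' processing notes list HISAT2 2.2.0, StringTie 2.1.2 and GRCh38, while annotation, strand setting and filters are not given in the sources used here. Depth is unknown. From the deposited values, log2(FPKM + 1) of the 12359 genes that reached 1 FPKM in 3 or more libraries was fitted with limma 3.58.1 in R 4.3.3 (eBayes with trend, two-sided, Benjamini-Hochberg adjustment over all genes tested), after the fit was tested on simulated data. Nuclear receptors below the filter were compared by exact two-sided permutation tests, whose smallest p is 0.1. Fold changes are on the log2(FPKM + 1) scale, which understates those of low genes.

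The receptors and gene lists were chosen with earlier results of these data known. Values per library are given for the 8 tested receptors with the highest mean, the 8 with the smallest p and those below the filter without overlap. Of each list the 2 genes with the smallest p are named, with values per library only for some of them, chosen after their values were seen. The NR4A and oxysterol receptors, FKBP5, cell markers and genes with overlapping exons are given for the reason stated beside them. A few genes that this rule names are not reported here. Same-numbered control and TAX libraries did not deviate together (r = -0.117, -0.333 and -0.171), so the numbers were not used as pairs. Alternatives were a pseudocount of 0.1, a filter of 0.1 FPKM, no filter, quantile normalization, median centring, no trend, a replicate block, leaving out each library and, chosen after the data were seen, median scaling of FPKM. Positions and exon overlaps are from GENCODE 29 (GRCh38).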

Additional observations from a re-analysis of the deposited data

How the results depend on the processing

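In all 14 alternatives 0 nuclear receptors had a limma adjusted p under 0.05, and ESRRA, PPARD, THRB and RORA kept their direction. Without a filter 5 of 38 receptors had an unadjusted p under 0.05, beside 1854 of 20280 genes. With the filter of 0.1 FPKM 3 of 29 did, beside 1601 of 16698 genes. In the other alternatives 2 to 4 of 20 did, beside 779 to 1644 of 12359 genes. With the replicate block 0 receptors passed, and 3 of 20 had an unadjusted p under 0.05, beside 971 of 12359 genes. The genes with an adjusted p under 0.05 fell from 59 to 26 with it. That count was 1 without a filter, 37 with the filter of 0.1 FPKM, 96 after median centring, 95 after quantile normalization, 94 after median scaling and 19 to 40 when 1 library was left out. The receptors lower without overlap were 2 with the filter of 0.1 FPKM (of 29 tested, 4.46% of all genes), without a filter (of 38, 4.31%), after median centring (of 20, 9.53%) and after median scaling (of 20, 9.12%). Leaving out 1 library gave 3 to 9 receptors higher without overlap (5 without control replicate 1 and 9 without control replicate 2, where 25.9% and 26.2% of all genes were). It gave 1 to 3 lower (3 without control replicate 3 and 2 without TAX replicate 2, where 13.4% and 6.68% of all genes were) and a median log2 fold change of 0.004 (without control replicate 3) to 0.11 (without control replicate 2). These lower counts include THRB, which passed the filter through its control libraries alone. Of 103 tested list genes 0 passed the threshold as deposited, and 12 had an unadjusted p under 0.05, beside 10.1% of all tested genes. The 0 became 3 with quantile normalization and with median scaling (CEBPD, CYP24A1 and GLUL) and 4 with median centring (with PLAAT4). It became 0 to 1 when 1 library was left out (CEBPD without control replicate 3). The cause of these moves was not tested. Without read counts, the counting error of receptors near 0 is unknown.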
